A study of Mus musculus with 12 samples.

Results

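A set of 9 scavenger and residency receptor genes, of the 27457 genes in the table, was followed through the macrophages of MC38 tumors. They were taken by name as Mrc1, Cd163, Lyve1, Folr2, Timd4, Stab1, Msr1, Cd36 and Marco, a set chosen with earlier results of these data known, and their unique molecular identifiers (UMIs, each marking 1 captured transcript) were summed by cluster and by tumor. MC38 is a colon carcinoma line of C57BL/6J (B6) origin, grown here under the skin of female mice aged 8 to 12 weeks that were either B6 or F1 offspring of B6 and a Collaborative Cross (CC) line. Every animal received 1 dose of 200 µg of antibody, which was either the 2A3 isotype control or 29F.1A12, an anti-PD-1 antibody (aPD1). Tumors were collected after 48 h, and their cells were sorted to be mostly CD45+. The responder group was made of CC001, CC002 and CC075 F1 hosts (10 isotype and 10 aPD1 tumors) and the non-responder group of CC036, CC079 and CC080 F1 hosts (9 isotype and 9 aPD1 tumors), a class that the study drew from tumor growth in other animals of these strains. B6 and CC007 F1 hosts (10 tumors) belonged to no class. The class rests on 3 strains on each side, so class and strain cannot be told apart, and no hashtag was used for both treatments, so hashtag and treatment cannot be told apart either.

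The table held 93126 cells of 48 tumors in 12 pooled libraries, with 53 to 3082 cells per tumor (median 1914) and a median of 3333.5 UMIs per cell. Cell barcodes found in more than one library belonged to 10176 cells (10.93%). The tumor was the replicate throughout. Of the 27 clusters, 10, with 68059 cells (73.08%), had the markers of monocytes and macrophages as their leading set and are called macrophages here. In 5 other clusters (12, 14, 16, 18 and 25) at least 5 of the 10 macrophage markers also reached 100 CPM, and these clusters were left out because markers of another cell type stood higher or, in cluster 25, because no type could be named. Between 46550 and 11780000 macrophage UMIs stood behind each tumor's value. Levels are given as CPM, the gene's UMIs for every 1000000 UMIs of the same cells. A level summed over macrophages cannot tell fewer cells that use a gene from less RNA in each of them.

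Scavenger receptors take up modified lipoproteins, polyanions, apoptotic cells and hemoglobin complexes, and many of them are kept high on macrophages that live in tissues for long periods. Mrc1 (CD206) is a mannose receptor for glycoproteins, Stab1 clears debris and secreted matrix proteins, Msr1 and Marco are class A scavenger receptors, and Cd36 is a receptor for fatty acids and oxidized lipoproteins. Cd163 takes up hemoglobin bound to haptoglobin, Lyve1 binds hyaluronan, Folr2 binds folate, and Timd4 binds phosphatidylserine on dying cells, and Lyve1, Folr2 and Timd4 are commonly used to mark long-lived macrophages next to vessels and in body cavities.

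The promoters of the 3 genes that differed between classes inside 1 macrophage cluster, Mrc1, Folr2 and Stab1, are given with that of Timd4, which had the lowest p among hosts. Each is the 250 bases before a transcription start of RefSeq on GRCm38.p6, read 5′ to 3′ on the gene's strand, and a promoter was at hand for 7 of the 9 genes. Mrc1 lies at chr2:14229414-14332023, Folr2 at chr7:101839988-101857190, Stab1 at chr14:31139017-31168651 and Timd4 at chr11:46810786-46844333. Capitals mark 3 motifs, searched on both strands: the core GAGGAA bound by the myeloid factor PU.1, the half-site TGCTGA bound by MAF factors, and the AP-1 site TGANTCA. None of the marked letters is shared by 2 motifs.
Mrc1, chr2:14229164-14229413, plus strand: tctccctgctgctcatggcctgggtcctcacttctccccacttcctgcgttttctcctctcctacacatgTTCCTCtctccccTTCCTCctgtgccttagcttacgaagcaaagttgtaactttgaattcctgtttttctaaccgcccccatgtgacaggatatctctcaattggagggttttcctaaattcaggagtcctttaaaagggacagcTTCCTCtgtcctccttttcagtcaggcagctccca
Folr2, first start, chr7:101857191-101857440, minus strand: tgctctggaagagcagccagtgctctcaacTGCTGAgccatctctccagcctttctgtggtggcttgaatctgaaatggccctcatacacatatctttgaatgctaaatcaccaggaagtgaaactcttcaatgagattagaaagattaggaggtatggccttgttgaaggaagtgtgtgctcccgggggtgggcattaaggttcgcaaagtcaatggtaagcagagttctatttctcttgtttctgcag
Folr2, second start, chr7:101845332-101845581, minus strand: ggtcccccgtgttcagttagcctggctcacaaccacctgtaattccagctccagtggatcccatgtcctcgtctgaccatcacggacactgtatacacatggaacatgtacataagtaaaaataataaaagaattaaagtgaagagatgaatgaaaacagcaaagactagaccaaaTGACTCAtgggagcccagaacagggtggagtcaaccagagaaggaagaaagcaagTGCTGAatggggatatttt
Stab1, chr14:31168642-31168891, minus strand: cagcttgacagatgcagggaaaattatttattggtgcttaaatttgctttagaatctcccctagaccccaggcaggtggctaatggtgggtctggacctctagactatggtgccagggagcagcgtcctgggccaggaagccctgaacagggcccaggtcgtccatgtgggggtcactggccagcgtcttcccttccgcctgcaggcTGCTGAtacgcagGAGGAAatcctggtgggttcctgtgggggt
Timd4, chr11:46810549-46810798, plus strand: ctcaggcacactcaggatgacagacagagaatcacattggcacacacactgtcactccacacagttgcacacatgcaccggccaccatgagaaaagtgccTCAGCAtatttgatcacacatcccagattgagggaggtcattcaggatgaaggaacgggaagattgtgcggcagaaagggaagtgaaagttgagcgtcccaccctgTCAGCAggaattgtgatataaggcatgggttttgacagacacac
The PU.1 core stood at 3 places before Mrc1 and at 1 before Stab1, and it was found in 23.3% of all 32851 promoters. The MAF half-site stood before both Folr2 starts, before Stab1 and at 2 places before Timd4, against 16.1% of all promoters, and the AP-1 site before the second Folr2 start, against 6.75%. The matches describe these letters only.

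Macrophages, where such receptors are best known, were 73.08% of the cells and held more than that share of the UMIs of 8 of the 9 genes. The share of a gene's UMIs found in macrophages was 97.11% for Stab1, 96.85% for Msr1, 96.44% for Folr2, 95.43% for Lyve1, 91.62% for Mrc1, 88.37% for Cd36, 87.96% for Cd163 and 77.55% for Marco. Timd4 went against this, with 11.71% of its UMIs in macrophages and 87.73% in dendritic cells, where its level was 210.5 CPM in migratory dendritic cells, 155.6 CPM in cDC1 and 112 CPM in cDC2. By UMIs it was thus a gene of dendritic cells in these tumors. With all macrophage clusters pooled, 4 other genes were not highest by level in macrophages either. By single cluster, all 4 were higher in macrophage cluster 9, described below, than in the other cell types named here. Marco was at 0.3787 CPM in macrophages and 1.103 CPM in cDC2 (33 UMIs, 31 of them from CC001 hosts). Cd163 was at 3.106 CPM in macrophages, 3.208 CPM in cDC2 and 8.136 CPM in pDC (13 UMIs). Lyve1 was at 3.541 CPM in macrophages and 5.444 CPM in cluster 22 (17 UMIs), and Cd36 at 63.6 CPM in macrophages, 64.07 CPM in cDC1 and 96.08 CPM in cluster 22. Cluster 22 held markers of fibroblasts (Col1a1 at 3567 CPM) and of endothelium (Pecam1 at 331.2 and Cdh5 at 323.5 CPM). Mrc1, Folr2, Stab1 and Msr1 were highest in macrophages, with Mrc1 at 229.9 CPM there and 162.7 CPM in cDC2.

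**Figure D1:**
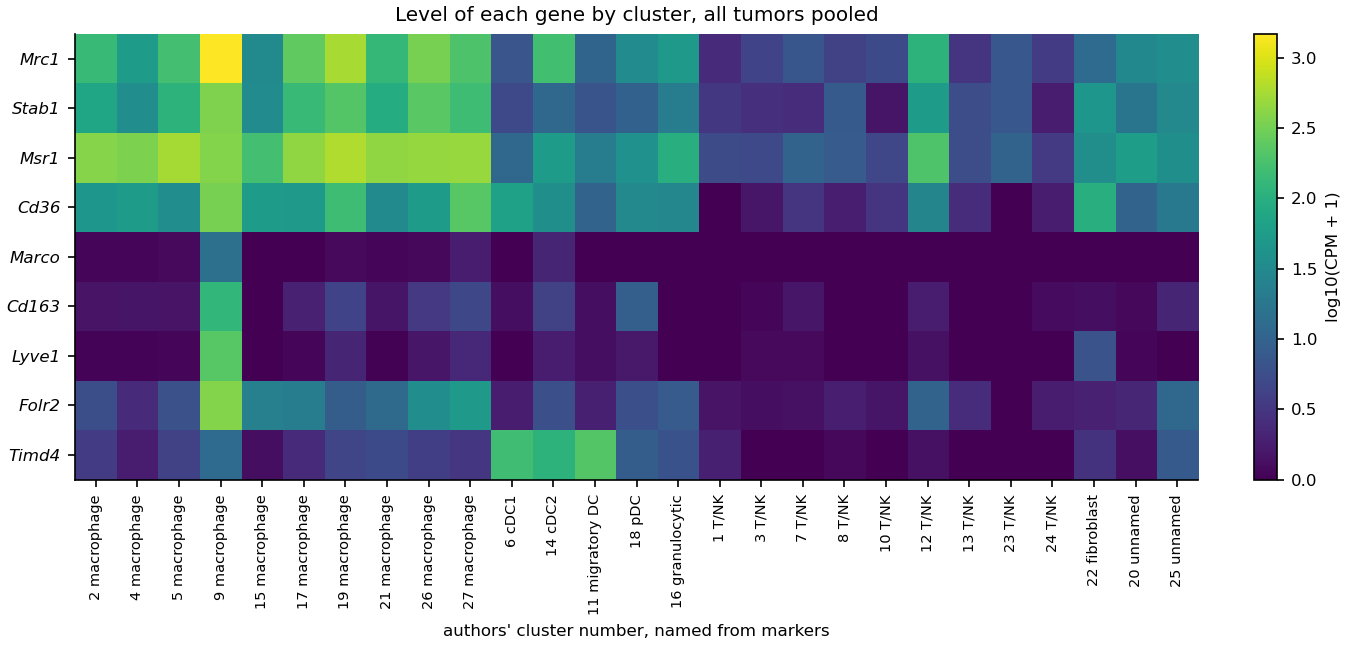
Color gives the level of each of the 9 genes as log10(CPM + 1) in the authors' 27 clusters, all tumors pooled, with clusters grouped by the cell type their markers gave (cluster 22, under fibroblast, also held endothelial markers). Mrc1 in cluster 9 is the brightest cell of the map, Stab1 is spread over the macrophage clusters, and Timd4 is brightest in the 3 dendritic clusters.

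Within the macrophages every receptor but Msr1 had a higher level in cluster 9, a population of 1022 cells from 43 tumors, than in the others. The study built the clusters from variable genes of these same cells. Whether the receptors were among those genes was not checked, so the levels are a description with no test. Lyve1 stood at 224.3 CPM in cluster 9 and at 0.3135 CPM in the other macrophages, Cd163 at 124.7 and 1.328 CPM, and Folr2 at 377.8 and 18.22 CPM. Mrc1 (1479 against 211.6 CPM), Cd36 (328.7 against 59.72 CPM) and Stab1 (359.4 against 135.7 CPM) were shared more widely. Marco had 13.6 CPM in cluster 9, resting on 59 UMIs, and 0.1854 CPM elsewhere, while Timd4 had 11.76 and 2.649 CPM. Msr1 was the exception, at 382.2 CPM in cluster 9 and 447.4 CPM in the other macrophages, with its highest levels in cluster 19 (611 CPM) and cluster 5 (545.1 CPM).

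Cluster 9 held 91.28% of the macrophage UMIs of Lyve1, 57.86% of those of Cd163, 51.75% of Marco, 23.27% of Folr2, 9.273% of Mrc1, 7.449% of Cd36, 6.093% of Timd4, 3.729% of Stab1 and 1.234% of Msr1, all tumors pooled. Taken per tumor with a UMI of the gene, the median share was 85.71% for Lyve1 (35 tumors), 42.86% for Cd163 (43 tumors) and 16.93% for Folr2 (47 tumors), but 0% for Marco, which had none of its UMIs in cluster 9 in 12 of 17 tumors. So a macrophage level of Lyve1 was mostly a level of cluster 9, and one of Mrc1, Stab1 or Msr1 was not. Of 8 lymphatic and blood endothelial genes, Flt4, Prox1 and Cldn5 had no UMI in cluster 9, Kdr and Emcn had 1 each, Cdh5 had 6, Vwf 14 and Pecam1 61. Against the other macrophages, Pecam1 (14.06 and 29.13 CPM), Vwf (3.227 and 4.716 CPM) and Kdr (0.2305 and 2.174 CPM) were lower in cluster 9, and Cdh5 (1.383 and 0.7652 CPM) and Emcn (0.2305 and 0.03708 CPM) were higher. All 10 macrophage markers were at 100 CPM or more there. Outside cluster 9, cluster 26 (led by Cxcl13, Ch25h, Fcrls, Ms4a7 and the C1q genes) had 331.8 CPM of Mrc1, 228.4 CPM of Stab1 and 34.85 CPM of Folr2, and cluster 27 (led by Gpnmb, Ppbp and Mmp12) had 219.3 CPM of Cd36 and 49.57 CPM of Folr2.

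The same was seen cell by cell after each cell was thinned at random to 1000 UMIs. A UMI of Mrc1 was found in 61.54% of cluster 9 cells and 16.02% of other macrophages, one of Folr2 in 24.34% and 1.517%, one of Lyve1 in 11.17% and 0.03501%, and one of Cd163 in 8.219% and 0.1321%. In cluster 3, T cells that should lack these receptors (median 2823 UMIs per cell, 3470 in cluster 9), the thinned share was 0.4231% for Mrc1 and 0.5385% for Msr1, and no cell had a UMI of Folr2, Cd163 or Timd4. Within cluster 9, Folr2 was found in 44.34% of the cells with a Lyve1 UMI and 21.83% of those without, and Mrc1 in 85.85% and 58.48%. Any of Lyve1, Folr2 and Cd163 was found in 35.19% of the 949 thinned cells of cluster 9 and in 1.668% of the other macrophages.

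Across the 27 clusters, the gene whose log level ran most like each receptor was found among 13051 genes, as a description in which all clusters share their libraries. Mrc1 (r = 0.953), Stab1 (r = 0.953) and Msr1 (r = 0.982) each ran most like Adgre1, the gene of the macrophage marker F4/80. Lyve1 ran most like Chp2 (r = 0.974), Folr2 like Pf4 (r = 0.9), Cd163 like Marco (r = 0.878), Marco like Cd5l (r = 0.977), Cd36 like Sash1 (r = 0.928) and Timd4 like Gm9530 (r = 0.891). Of 16 other residency-associated genes in the table, 12 had their highest level of all clusters in cluster 9, among them Cbr2, F13a1, Pf4, Ccl8, Vsig4 and Cd5l. The same held for 1 of 11 other scavenger receptors (Colec12), 1 of 12 efferocytosis genes (Gas6, a bridge from dying cells to Mertk), 2 of 14 cargo-handling genes (Blvrb, Lipa) and 1 of 10 recruited monocyte genes (Fn1).

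The study asks what sets tumors of hosts that respond to aPD1 apart from those of hosts that do not, and in macrophages Folr2 and Mrc1 were lower in the responder tumors. Folr2 ranged from 2.933 to 45.43 CPM (median 9.72) in the 20 responder tumors and from 6.078 to 73.78 CPM (median 34) in the 18 non-responder tumors. The ranges overlapped, with 8 responder tumors below every non-responder tumor and 7 non-responder tumors above every responder tumor. The log2 difference, responder minus non-responder, was -1.56 (SE 0.311, edgeR quasi-likelihood adjusted p = 0.00128), that is 2.94-fold lower.

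Mrc1 ranged from 85.74 to 495.7 CPM (median 176.4) in responder and from 150.2 to 539.8 CPM (median 279.9) in non-responder tumors, with 6 responder tumors below every non-responder tumor. Its log2 difference was -0.58 (SE 0.170, edgeR adjusted p = 0.0296), or 1.5-fold lower. These were the 2 genes called of the 8 tested. Over all 11646 genes tested 745 were called, 6.4%, of which 454 were higher and 291 lower in responder tumors (325 and 509 when scaled by library size alone). Mrc1 was no longer called without CC002 (log2 difference -0.52), CC075 (-0.52) or CC036 hosts (-0.39), nor when any of pools 2, 4, 5, 8 and 9 was left out, and with the pool as a block its adjusted p by edgeR was 0.0628. Nor was it called in pools 1 to 5 alone (-0.38), pools 8 to 12 alone (-0.83), isotype tumors alone (-0.49) or aPD1 tumors alone (-0.68). Folr2 was called without any 1 of the 6 strains, from -1.16 without CC079 to -1.99 without CC001. It was not called in isotype tumors alone (-1.19), in pools 8 to 12 alone (-1.25), or with counts summed per strain (-1.64, edgeR adjusted p = 0.553), the setting in which the 3 strains of a class and not their tumors are the replicates, and in which neither gene was called.

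The other receptors did not pass the test. Cd163 had a median of 0.6924 CPM in responder and 2.692 CPM in non-responder tumors, a log2 difference of -1.31 (SE 0.533, edgeR adjusted p = 0.146), and it was called without CC001 hosts (-2.37), 2 isotype tumors of which had 19.74 and 9.869 CPM, without CC080 hosts (-1.85), without pool 1 (-1.74) and in aPD1 tumors alone (-2.52). Lyve1 had medians of 0.5785 and 1.926 CPM (log2 difference -1.08, SE 0.635, edgeR adjusted p = 0.358). Stab1 had medians of 121.5 and 146.4 CPM (-0.27, SE 0.144, edgeR adjusted p = 0.305) and was called without CC001 hosts (-0.54) and in aPD1 tumors alone (-0.57), and Timd4 had 3.282 and 2.542 CPM (0.68, SE 0.386, edgeR adjusted p = 0.333) and was called without CC002 hosts (1.10). Msr1 (medians 420.1 and 498.2 CPM) and Cd36 (55.57 and 65.75 CPM) lay within 1 SE of no difference. Marco had too few UMIs to be tested.

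**Figure D2:**
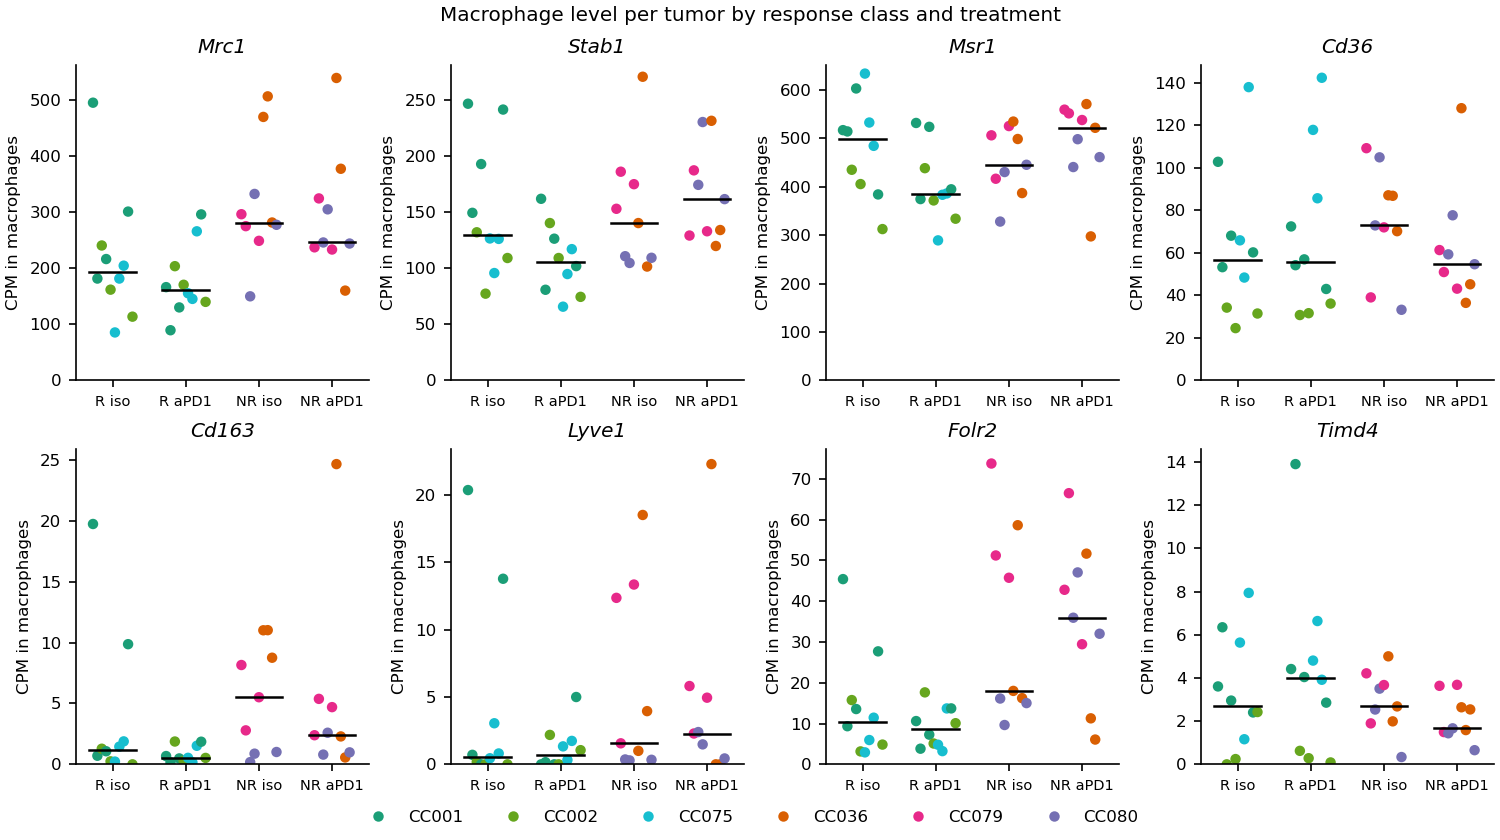
Each point is the macrophage level (CPM) of 1 tumor for 8 of the genes, in responder (R) and non-responder (NR) hosts under isotype (iso) or aPD1, colored by host strain, with a black line at the median. Folr2 lies lower in most responder tumors, and the high Cd163 and Lyve1 values are those of a few CC001, CC036 and CC079 tumors.

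Markers of other cells within the macrophage sums were compared beside these results. All 6 markers of cDC2, which also carry Mrc1, were detected, and their summed level in macrophages was 24.43 to 145.3 CPM (median 63.13) in responder and 28.57 to 165.7 CPM (median 86.47) in non-responder tumors, mostly from Cd80 (50.1 CPM), with Cd209a at 1.419, Flt3 at 1.1 and Cd7 at 0.2492 CPM. The 6 cDC1 markers, also all detected, went the other way (183.7 to 427.1 CPM, median 324.4, against 139.9 to 378.7 CPM, median 220.3), mostly from Irf8 (155.9 CPM) and Cadm1 (99.46 CPM), with Xcr1 at 0.7674 CPM. The 8 endothelial markers, of a tissue that also uses Lyve1 and Stab1, were all detected and summed to 17.71 to 90.97 CPM (median 40.28) in responder and 12.45 to 97.07 CPM (median 26.37) in non-responder tumors, lowest in CC079 hosts (median 15.75), mostly from Pecam1 (28.92 CPM), with Cdh5 at 0.7741 CPM. Their part in the differences was not tested. Cluster 9 was a median of 0.7499% of macrophages in responder and 1.548% in non-responder tumors, and without its cells the log2 difference was -1.63 for Folr2 and -0.57 for Mrc1, both still called.

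The class difference was also present inside single clusters, which hold a narrower mix of macrophages. Only clusters 2, 5, 9 and 26 were tested. Among these the difference was clearest in cluster 26, where 3 of the 5 genes tested were called, against 7.72% of all genes. Folr2 was at 0 to 32.54 CPM (median 11.62) in responder and 16.74 to 96.65 CPM (median 65.06) in non-responder tumors. In all, 14 of 18 non-responder tumors lay above every responder tumor and 13 of 20 responder tumors lay below every non-responder tumor. The log2 difference was -1.99 (SE 0.231, edgeR adjusted p = 1.63e-07). In all fits within clusters the tumors and not the strains are the replicates, and no fit with counts summed per strain was run there.

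In the same cluster Mrc1 had medians of 246.9 CPM in responder and 445.6 CPM in non-responder tumors (log2 difference -0.71, edgeR adjusted p = 0.00193), and Stab1 164.3 and 274.8 CPM (-0.48, edgeR adjusted p = 0.0249). Their ranges overlapped for most tumors, and Stab1 was not called without pool 2, 5, 9 or 11 (-0.36 without pool 9, edgeR adjusted p = 0.153). By host, the Folr2 medians in cluster 26 were 8.934 CPM in CC075, 12.75 in CC002 and 14.25 in CC001 hosts, and 41.92 in CC036, 60.37 in CC080 and 71.77 in CC079 hosts, with B6 at 26.43 and CC007 at 37.74 CPM in between. The 3 responder hosts thus had the 3 lowest medians and the non-responder hosts the 3 highest.

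Folr2 was lower in cluster 2, macrophages led by Ly6i, Ccl24 and Clec4n, at a median of 2.96 CPM in responder and 6.816 CPM in non-responder tumors (log2 difference -1.05, SE 0.279, edgeR adjusted p = 0.0204), where it was the 1 gene called of 5 tested against 3.89% of all genes. By host its medians in cluster 2 were 1.272 CPM in CC075, 3.615 in CC002 and 3.826 in CC001 hosts. They were 3.591 CPM in CC036, 6.264 in CC079 and 9.036 in CC080 hosts, so CC036 lay below CC001 and CC002. Mrc1 was lower in cluster 5 (medians 127.2 and 208.8 CPM, log2 difference -0.62, edgeR adjusted p = 0.0339), the 1 gene called of 4 tested against 4.41% of all genes. The call in cluster 2 was lost without pool 2, 3, 5 or 11, and that in cluster 5 without pool 2, 4, 8, 9, 10 or 11 and with the pool as a block (edgeR adjusted p = 0.062), where Folr2 was called instead (-1.37).

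In cluster 9 itself none of 7 genes was called by edgeR (0, against 0.157% of 3181 genes; 2 had an unadjusted p under 0.05, and DESeq2 called 18 genes but no receptor), with 7 responder and 11 non-responder tumors of 20 or more cells. Cd36 had a log2 difference of -0.92 (edgeR adjusted p = 0.213) and Folr2 of -0.72 (edgeR adjusted p = 0.364). Mrc1 and Cd163 lay within 1 SE of 0 in cluster 9. Both Cd36 (-0.9985) and Folr2 (-0.79) were called there without a filter on low counts.

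**Figure D3:**
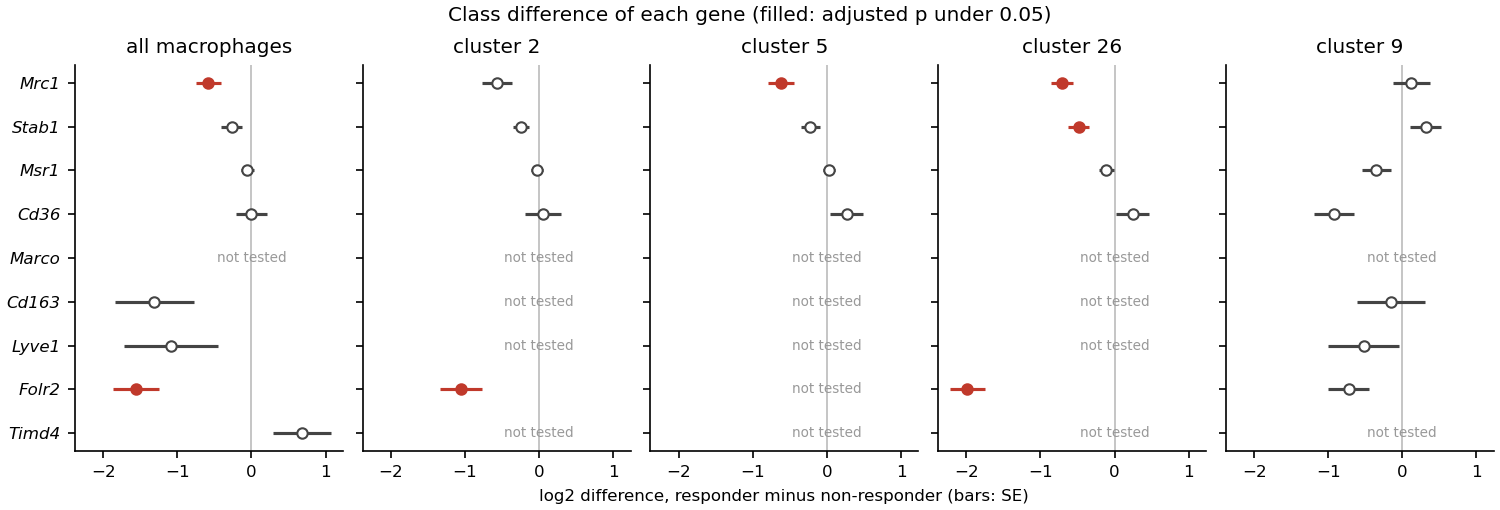
Points give the log2 difference between responder and non-responder tumors for each gene with its SE, over all macrophages and within clusters 2, 5, 26 and 9, filled where the adjusted p was under 0.05. Mrc1 lies to the left of 0 in every panel but that of cluster 9, and Folr2 does so in each of the 4 panels where it was tested.

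Among the 8 hosts, taken without regard to class, each receptor that could be tested differed, 8 of 8, where 51.7% of all genes did. No pool held all hosts, so host and pool could be told apart only in part. CC079 and CC036 hosts shared no pool. Folr2 was highest in CC079 hosts (29.46 to 73.78 CPM, median 48.49), followed by CC080 (median 24.09) and CC036 (17.12), and lowest in CC075 hosts (2.933 to 13.71 CPM, median 5.383). The CC079 range lay above those of B6, CC002, CC007 and CC075 hosts, and neighbors in the order of medians overlapped. The fitted host means spanned 2.83 log2 units (edgeR adjusted p = 8.59e-05).

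Mrc1 had its highest median in CC036 hosts (424.1 CPM, range 160.4 to 539.8) and low medians in B6 (144.1) and CC007 (135.2), and the fitted host means spanned 1.37 log2 units (edgeR adjusted p = 0.00408). Cd36 had another order, with CC075 hosts highest (48.39 to 142.3 CPM, median 101.7) and CC002 lowest (24.62 to 36.16 CPM, median 31.56), ranges that did not overlap, over a span of 1.62 log2 units (edgeR adjusted p = 0.00126). CC002 and CC075 are both responder strains. Cd163 had its highest medians in CC036 (9.883 CPM) and CC079 hosts (5.037 CPM), and all other hosts had a median under 1 CPM (span 3.85 log2 units, edgeR adjusted p = 0.000131). Without pool 7 the fitted Cd163 span was 9.27 log2 units. With so many host medians under 1 CPM the size of this span is poorly fixed.

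Lyve1 spanned 5.43 log2 units (edgeR adjusted p = 0.0108) with a median of 5.386 CPM in CC079 hosts and 0 CPM in CC007 hosts. Its span was 8.98 log2 units without pool 7 and 3.20 without B6 and CC007 hosts, a size as poorly fixed as that of Cd163. Stab1 (0.66 log2 units, edgeR adjusted p = 0.0131) and Msr1 (0.45 log2 units, edgeR adjusted p = 0.0266) spanned little, and the ranges of most hosts overlapped. The Msr1 call was lost without pool 1, 4, 5, 6 or 7. It was also lost in 4 of the 11 other alternatives, across which the Msr1 span ran from 0.37 to 0.90 log2 units. With the pool as a block 4 of the 9 genes then tested were called, Cd36, Cd163, Folr2 and Timd4, where 1671 of all 13010 genes were.

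**Figure D4:**
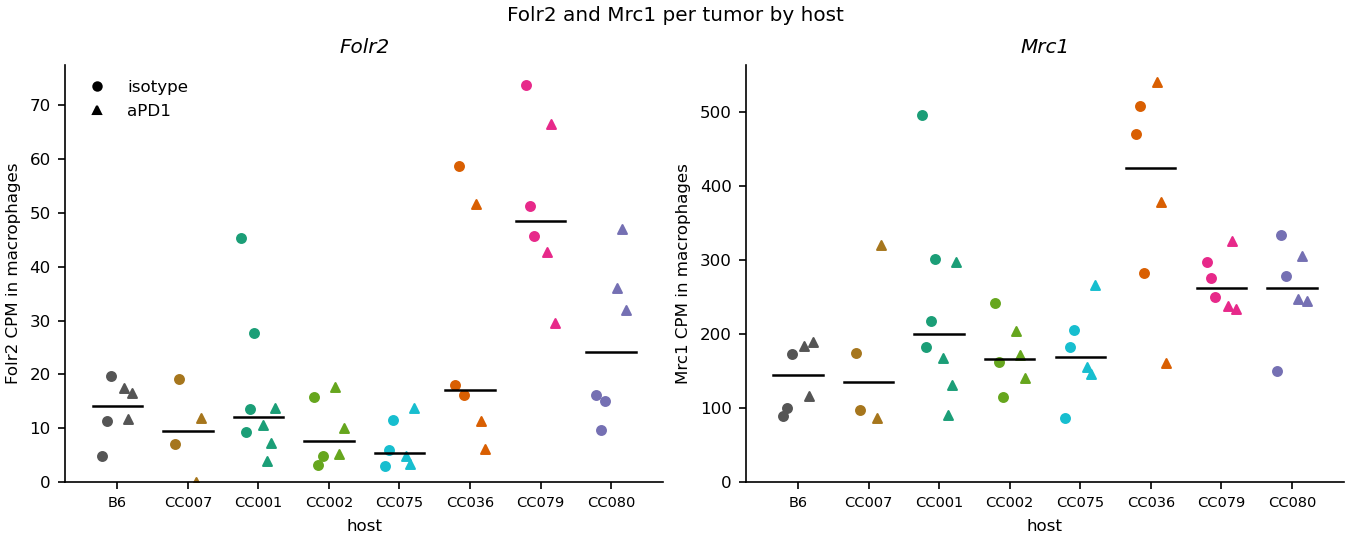
Each point is the macrophage level (CPM) of Folr2 or Mrc1 in 1 tumor by host, circles for isotype and triangles for aPD1, with a black line at the host's median. CC079 hosts stand highest for Folr2 and CC036 hosts for Mrc1.

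Timd4 was nearly missing from the macrophages of 2 hosts, B6 and CC002, though not from their dendritic cells. In the macrophages of B6 hosts 5 UMIs were found in 8028 cells (0.1582 CPM, exact Poisson interval 0.05137 to 0.3692, which covers counting error only), and in those of CC002 hosts 9 UMIs in 8412 cells (0.2585 CPM, 0.1182 to 0.4907). By tumor, CC002 hosts had 0 to 0.6248 CPM in 5 tumors and 2.423 CPM in the isotype tumor of pool 12. That value rests on 1 UMI in 125 macrophages. B6 tumors had 0 to 0.3611 CPM. The range of CC080 tumors, 0.3375 to 3.507 CPM, overlapped those of both hosts. With tumors pooled, the hosts other than B6 and CC002 had 1.603 CPM (CC080) to 5.082 CPM (CC075) from 64 to 278 UMIs. The fitted host means spanned 4.85 log2 units (edgeR adjusted p = 2.65e-08), and 8.42 with the pool as a block. Among the alternatives other than leaving out single pools the span was as low as 1.77, and Timd4 was called in all of them.

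Dendritic cells of the same tumors held Timd4 in every host, with 123.9 CPM in CC002 hosts beside 118.8 CPM in CC080 and 113.8 CPM in CC036 hosts. B6 was lowest at 60.89 CPM and CC079 highest at 231.1 CPM. The span was 1.83 log2 units (edgeR adjusted p = 0.00728), in a comparison added after the data were seen, in which 4 of 6 genes tested were called, against 17.4% of all genes (Timd4, Folr2, Cd36 and Msr1). Without pool 1 only Timd4 was called, and Cd36 was not called either without pool 2, 3, 5, 9, 11 or 12. Between the classes 0 of 5 genes were called by edgeR in dendritic cells, against 1.23% of genes (2 receptors and 1003 genes had an unadjusted p under 0.05, and DESeq2 called 176 genes but no receptor). In T and NK cells each host had 0 or 1 UMI.

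The Timd4 UMIs of macrophages lay in 601 cells, of which 11.1% also held a UMI of a dendritic marker (Flt3, Cd209a, Ccr7, Xcr1 or Clec9a), against 3.25% of the other macrophages. The first had a median of 6183 UMIs and the second 3464. Whether dendritic cells or free RNA gave part of the macrophage level was not tested. Dendritic cells made up 9.56% of the cells of B6 and 9.05% of those of CC002 hosts, within the range of 5.96 to 10% over all hosts.

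**Figure D5:**
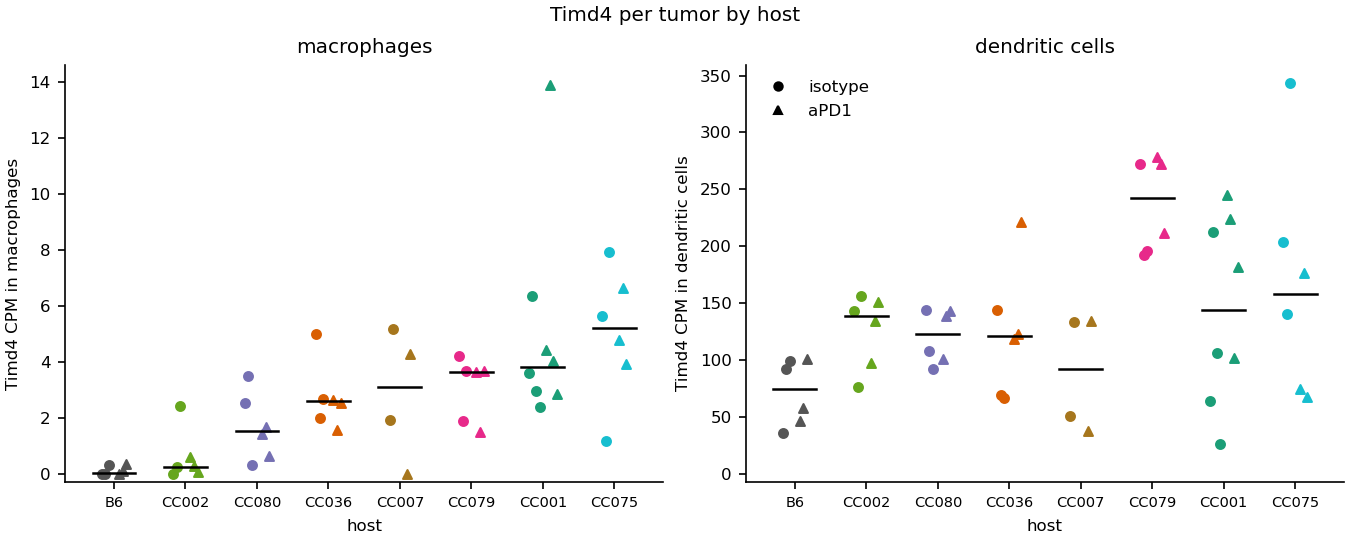
Timd4 level (CPM) per tumor by host in macrophages and in dendritic cells, circles for isotype and triangles for aPD1, with a black line at the median. All B6 tumors and 5 of the 6 CC002 tumors lie below 1 CPM in macrophages, while their dendritic cells do not. Some CC080 tumors and a CC007 tumor also lie below 1 CPM in macrophages.

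The dose of aPD1 gave no call in any of the receptors 48 h later. Over all hosts 0 of 8 genes were called by edgeR (0% of 12510 genes were called; 385 genes and 0 of the receptors had an unadjusted p under 0.05, and DESeq2 called 0 genes). In responder hosts 0 of 8 were called where 1 gene was (0.00847%; 1526 genes had an unadjusted p under 0.05, and DESeq2 called 23 genes but no receptor), and in non-responder hosts 0 of 8 (0% of 11899 genes; 176 had an unadjusted p under 0.05, and DESeq2 called 0).

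In responder hosts 3 receptors had an unadjusted p under 0.05. Cd163 had a log2 difference, aPD1 minus isotype, of -1.97 (SE 0.686, edgeR adjusted p = 0.266), Stab1 of -0.39 (SE 0.159, edgeR adjusted p = 0.317) and Msr1 of -0.21 (SE 0.101, edgeR adjusted p = 0.383). The log2 differences of Lyve1 (-1.43, SE 0.917), Folr2 (-0.55, SE 0.394) and Timd4 (0.52, SE 0.384) were larger than those of Stab1 and Msr1, with larger errors, and that of Lyve1 was -0.58 without pool 1. In pairs of the same pool and strain Cd163 was lower with aPD1 in 6 and higher in 4 of 10 responder pairs, Stab1 was lower in 8 of 10, and Msr1 was higher in 8 of 9 non-responder pairs and in 4 of 10 responder pairs. The difference between the classes in the response was not called for any receptor (0 of 8 by edgeR, where 0.00813% of genes were called; 3 receptors had an unadjusted p under 0.05, and DESeq2 called 6 genes but no receptor). It was -1.96 for Cd163, -0.33 for Msr1 and -0.55 for Stab1, with edgeR adjusted p of 0.422, 0.422 and 0.427.

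By single host, with 3 or 4 tumors on each side, isotype and aPD1 values did not overlap for 3 genes in CC080, where 6.03% of genes with a mean of 10 or more UMIs per tumor did not overlap (the shares given for other hosts are over the same genes). Folr2 was at 9.644, 15.02 and 16.14 CPM with isotype and 32.03, 35.96 and 47.07 CPM with aPD1 in CC080 hosts. Stab1 was at 104.6, 109.2 and 110.6 CPM with isotype and 161.4, 174.1 and 230.0 CPM with aPD1. Lyve1 was higher too, at 0.4372 to 2.398 CPM against 0.2922 to 0.3627 CPM, with few UMIs behind the isotype values. One animal identifier stands on an isotype and an aPD1 tumor of CC080.

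Msr1 was higher with aPD1 in CC079 hosts (537.6 to 559 CPM against 416.4 to 525.1 CPM, where 9.52% of genes did not overlap) and lower in CC075 hosts (289.2, 383.3 and 386.1 CPM against 484.3, 532.4 and 633.4 CPM). Marco, too low to be among the genes of these shares, was higher with aPD1 in CC075 hosts (0.4353 to 1.335 CPM against 0 to 0.1453 CPM). These 2 of 9 receptors stand beside 23.5% of genes that did not overlap in CC075 hosts. In B6, CC001, CC002 and CC036 hosts none of the 9 genes was apart (0, against 4.02%, 3.53%, 6.34% and 3.37% of genes).

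Other genes of the same tasks were read beside the receptors in the class comparison of macrophages. In that comparison 6.4% of all genes were called. With counts summed per strain 0 genes of all were called higher in responder tumors and 3 lower. The calls below are those of the main fit, in which tumors are the replicates. Of 8 other scavenger receptors tested, 2 were higher in responder tumors, Scarf1 (log2 difference 1.07), which binds modified lipoproteins on endothelium and macrophages, and Cxcl16 (0.37), which is also a chemokine. Colec12 (-0.83) and Olr1 (-0.81), both receptors of modified lipoprotein, were lower. Of 10 efferocytosis genes 1 was lower, Mfge8 (-0.71), a bridge between dying cells and integrins, and of 10 other residency-associated genes 0 were called by edgeR (2 had an unadjusted p under 0.05, and DESeq2 called 1, Ccl24).

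Of 13 cargo-handling genes tested, 3 were higher in responder tumors and 0 lower, beside the same 6.4% of all genes. They were Blvrb (0.50), a biliverdin reductase, Fth1 (0.44), the ferritin heavy chain, and Lipa (0.37), the lysosomal acid lipase. Of 10 recruited monocyte genes Ly6i was higher (2.53) and Vcan (-0.96), Fn1 (-0.94) and Ccr2 (-0.48) were lower. The median log2 difference was -0.05 over the scavenger receptors, -0.13 over the efferocytosis genes, -0.13 over the residency genes, 0.26 over the cargo genes and -0.39 over the monocyte genes, against -0.0066 over all genes. In cluster 26, where 7.72% of all genes were called, the same lists were counted. Of 8 scavenger receptors Scarf1 (0.87) and Cxcl16 (0.31) were higher in responder tumors and Colec12 (-1.20) was lower. Of 12 cargo-handling genes 4 were higher and 0 lower, Abcg1 (0.60), an exporter of cholesterol, Fth1 (0.42), Blvrb (0.42) and Lipa (0.38). Of 10 residency genes 1 was lower, the transcription factor Maf (-0.36, edgeR adjusted p = 0.0366), a call lost with the pool as a block and without pool 2, 4, 5, 8, 9 or 12. Of 7 monocyte genes Ly6i was higher (3.77) and Fn1 (-1.27) and Ccr2 (-0.62) were lower, and of 10 efferocytosis genes 0 were called by edgeR (4 had an unadjusted p under 0.05, and DESeq2 called 1, Mfge8). Cxcl16 and Abcg1 were not called without pool 2, 5 or 9, nor Ccr2 without pool 1, 3, 4, 5, 11 or 12.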

How the data were processed

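Single cells of 48 MC38 tumors were profiled with 10x Genomics 5′ chemistry in 12 pools of 4 hashtagged specimens. The authors deposited raw UMI counts per gene and cell, made with Cell Ranger count on GRCm38 with GENCODE vM23, after removing cells whose mitochondrial or ribosomal RNA passed set limits, and their cluster numbers, made with Seurat 5.0.1 after harmony correction. Reads of all hosts were aligned to the B6 reference, and an effect of this on levels in CC hosts was not tested. The labels call the hashtag antibodies TotalSeq-A and the study's methods TotalSeq-C.

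Counts were read as deposited (all whole numbers). Clusters were named where at least 3 markers and 50% of a cell type's list reached 100 CPM. A cluster that met this for several types took the type whose markers stood highest over the mean of all clusters (log2 scale), and stayed unnamed where its top 10 genes held more markers of another type. The macrophage clusters were summed per tumor, as were the cDC1, cDC2 and migratory dendritic clusters. Doublets were not called, and leaving out the 709 macrophages (1.042%) with a Cd3 UMI was an alternative. Groups came from the labels' strain and treatment, and the response class from the study. The 48 tumors carry 47 animal identifiers. Sums were tested with edgeR 4.0.16 in R 4.3.3 (TMM scaling, filterByExpr, quasi-likelihood F-test, Benjamini-Hochberg adjustment over all genes tested, called at an adjusted p under 0.05). Class was fitted with treatment, aPD1 with host strain, and host strain with treatment. Within a cluster, tumors of 20 or more of its cells entered. A gene that filterByExpr removed was not tested. DESeq2 1.42.0, other scalings, no filter, blocks for pool or pair, single strains, pools or treatments, and leaving out each pool in turn were alternatives. The edgeR step was tested on simulated data. For the class comparison each tumor was drawn independently, without strain or pool effects. That simulation therefore cannot show how class p-values behave where tumors share a strain. For shares of cells with a UMI, cells were thinned to 1000 UMIs and shallower cells left out (5.863% of responder and 5.175% of non-responder macrophages). Likeness across clusters was Pearson's r of log2(CPM + 1) over genes that reached 10 CPM.

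The 9 receptors and the 5 gene lists were chosen with earlier results of these data known. The text names all 9 receptors and, of the lists, the genes called in the class comparison or highest in cluster 9. The comparisons in dendritic cells were chosen after seeing the data. Tables were made with Python 3.11.15 (numpy 2.4.6, pandas 2.3.3, scipy 1.17.1) and drawn with matplotlib 3.10.9, and promoters came from RefSeq on GRCm38.p6.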

Additional observations from a re-analysis of the deposited data

Results flagged for a closer look

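Macrophage levels of the 9 receptors were searched for tumors far from the rest of their class and treatment, by the gap to the nearest tumor. Of 36 groups 10 held such a tumor. The rule's rate of about 1 in 20 is for independent, normally distributed values. These groups mix strains and share tumors between genes, so the count cannot be set against that rate.

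In the CC001 isotype tumor of pool 1, Mrc1 was at 495.7 CPM (next 301.4), Cd163 at 19.74 CPM (next 9.869) and Marco at 2.123 CPM (next 0.253, from 10 UMIs). Cluster 9 made up 8.92% of the macrophages of this tumor. In the CC036 aPD1 tumor of pool 8, Cd163 was at 24.66 CPM (next 5.377), Lyve1 at 22.31 CPM (next 5.819) and Cd36 at 128.0 CPM (next 77.66), with cluster 9 at 4.44% of macrophages. Stab1 reached 270.3 CPM (next 185.8) in the CC036 isotype tumor of pool 9, with cluster 9 at 3.58%. Over all tumors the median share of cluster 9 was 1.087%. The part of that share in these values was not tested.

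Lyve1 was at 5.002 CPM (next 2.187) in the CC001 aPD1 tumor of pool 12, and Timd4 at 13.91 CPM (next 6.639) in the CC001 aPD1 tumor of pool 2. In both, cluster 9 was under 1% of macrophages (0.94% and 0.64%). Msr1 was low, at 297.4 CPM where the next tumor had 440.5, in the CC036 aPD1 tumor of pool 9.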

How the results depend on the processing

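Of the receptors, 2 were called between classes in macrophages. In the alternatives 4 were called without CC001 hosts (Cd163 and Stab1 added), 3 in aPD1 tumors alone (Folr2, Cd163 and Stab1), 3 without CC080 hosts (Cd163 added), 1 without CC075 hosts, 1 without CC036 hosts, 1 with the pool as a block, 1 in pools 1 to 5 alone, and 0 with counts summed per strain, 0 in pools 8 to 12 alone and 0 in isotype tumors alone. Leaving out each pool gave 1 to 3. Without CC002 hosts the called genes were Folr2 and Timd4 (1.10). Genes called in all fell from 745 to 3 with counts summed per strain, 22 in isotype tumors alone (720 in aPD1 tumors alone, with as many tumors), 263 in pools 1 to 5, 395 in pools 8 to 12, 407 over all cells, 462 without pool 2 and 491 without pool 9. They were 784 without CC075 hosts, 755 without CC036 hosts and 1094 with the pool as a block, where fewer receptors were called as well. The cause was not tested. Over all cells, dendritic cells included, Timd4 turned to -0.39 (0.68 in macrophages), and in isotype tumors alone Stab1 turned to 0.035 (-0.27 with both treatments). Neither was called.

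Within clusters, leaving out each pool gave 0 to 1 calls in cluster 2, 0 to 1 in cluster 5 and 2 to 3 in cluster 26 (Stab1 lost). Without a filter on low counts 2 receptors were called in cluster 2 (Cd163 added) and 2 in cluster 9, and 2 were called in cluster 9 with 50 or more cells per tumor (Cd36 and Msr1), a fit of 1 responder against 3 non-responder tumors in which the lone tumor is assumed to vary like the others. In cluster 9 the 5 genes called of all became 102 without a filter, 135 in that fit of 4 tumors, 18 by DESeq2, 9 with the pool as a block and 1 to 9 without single pools. Genes called in cluster 2 rose from 359 to 906 with the pool as a block. Without single pools they fell to as few as 186 in cluster 2, 194 in cluster 5 and 391 in cluster 26. With the pool as a block Lyve1 in cluster 9 turned to 0.22 (from -0.52) and Msr1 in cluster 26 to 0.0031 (from -0.11). Cd36 in cluster 26 ranged from -0.0385 (without pool 11) to 0.43.

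For aPD1 no receptor was called under any of the alternatives run, the pair of pool and strain as a block included. Genes called in responder hosts were 0 to 23, and for the interaction 0 to 6. Lyve1 over all hosts turned to 0.0536 by DESeq2 (from -0.65), and in non-responder hosts of pools 7 to 12 Msr1 turned to -0.0149 (from 0.12) and Cd36 to 0.0077 (from -0.29). Among hosts, 4 receptors were called with the pool as a block (1671 genes of all, where 6464 were called without it) and 7 to 8 without single pools. In dendritic cells 2 receptors were called between classes with the pool as a block, Marco (3.15) and Folr2 (-1.80). The Marco value rests on 33 UMIs, 31 of them from CC001 hosts. Of all genes 341 were called with that block, where 101 were called without it, and 14 to 176 under other settings. Among hosts 1 (without pool 1) to 5 (without pool 6) receptors were called in dendritic cells. Shares of macrophages with a UMI rose with depth, Folr2 from 0.7744% to 1.736% at 2000 UMIs in responder tumors and from 2.78% to 5.395% in non-responder tumors.

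Depth limits Marco, with few UMIs in any tumor, and Timd4, Lyve1 and Cd163 in tumors of few macrophages. The CC007 aPD1 tumor of pool 6 had 53 cells in all.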

Other observations

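Marco was found in dendritic cells as well as macrophages. Of its 33 UMIs in dendritic cells, 21 came from the CC001 aPD1 tumor of pool 2 and 9 from the CC001 aPD1 tumor of pool 1.

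Folr2 in dendritic cells was at 2.934 to 16.2 CPM (median 11.53) in CC079 hosts, the hosts with the highest macrophage level, and its median was under 3 CPM in each of the other hosts. Macrophage markers in dendritic cells had a summed level of 745.6 to 7813 CPM (median 2264) in responder and 1735 to 4502 CPM (median 2848) in non-responder tumors. Their part in the Folr2 level was not tested.

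Macrophages with a Timd4 UMI made up 0.0623% of those of B6 hosts and 0.0951% of those of CC002 hosts, and 0.538% (CC080) to 1.62% (CC001) of those of the other hosts. Timd4 and any of Lyve1, Folr2 and Cd163 were found together in 7 of the 10 cluster 9 cells with a Timd4 UMI after thinning, and in 4 of the 126 such cells among the other macrophages.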
